A study of Drosophila melanogaster with 8 samples.

Results

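Nuclei of the imaginal discs that held *Ultrabithorax* (*Ubx*) transcripts were compared with disc nuclei that held none, within a single-nucleus RNA-seq atlas of whole *Drosophila melanogaster* larvae. Disc nuclei were those the authors annotated as wing, leg and haltere disc, in clusters 0, 1 and 5 of their 28 clusters. A nucleus was called Ubx-positive when its corrected *Ubx* count was 0.5 or more and Ubx-negative when it was below 0.1. Of 30819 nuclei, 8386 were disc nuclei, of which 2363 were positive, 6023 were negative and 0 fell between. The sides were thus chosen by the *Ubx* count itself, so every *Ubx* value below is a description, and *Ubx* was left out of all sums and tests. The atlas has 8 libraries of 1 group, w1118 larvae raised for 5 days after egg deposition, and each library pooled 16 wandering third-instar larvae (8 male and 8 female) that were homogenised whole. No other genotype or treatment was sampled. Disc nuclei were therefore identified by clustering rather than by dissection, and the haltere, wing and leg discs were not told apart by any label.

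*Ubx* is a Hox gene of the Bithorax complex. Hox genes encode homeodomain transcription factors that give each body segment its identity. In the thorax, *Ubx* is known for specifying the third segment, where it turns the dorsal appendage into a haltere instead of a wing and marks the third leg, and it is also present in the squamous peripodial layer that covers discs. The other Hox genes are used in other segments: *proboscipedia* (*pb*), *Deformed* (*Dfd*) and *Sex combs reduced* (*Scr*) in the head and first thoracic segment, *Antennapedia* (*Antp*) in the thorax, and *abdominal-A* (*abd-A*) and *Abdominal-B* (*Abd-B*) in the abdomen and genital disc. In the BDGP6.54 annotation, *Ubx* lies on the minus strand of chromosome arm 3R at 3R:16656623-16734426.

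The clusters differed in the disc genes they carried. Values are CPM, the summed count of a gene scaled to the total of the same sum, which sets libraries of unequal depth on 1 scale. Cluster 0 carried leg genes: *Sp1*, a zinc finger factor of leg growth, had a median of 6342 CPM over the 8 libraries, against 102.8 in cluster 1 and 57.4 in cluster 5, and *Distal-less* (*Dll*), which makes the distal leg, had 945.5 against 49.8 and 283. Cluster 5 carried the genes of the wing and haltere pouch: *nubbin* (*nub*) had a median of 1880.0 CPM against 406 in cluster 0 and 32.4 in cluster 1, and *vestigial* (*vg*) had 723 against 8.31 and 110.8. Cluster 1 was highest in *homothorax* (*hth*, 16230.0 CPM), a cofactor of Hox proteins in proximal tissue, and in *Antp* (2927 CPM). *hth* also stood at 11180 CPM in cluster 5, above 8723 CPM in cluster 0, so cluster 5 carried pouch genes beside a gene of proximal tissue. Cluster 1 also held *toy*, an eye gene of the Pax6 type, at 213.9 CPM, and *Abd-B* at 174.2 CPM. The annotated disc clusters thus also held transcripts of discs other than wing, leg and haltere.

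Library 1 had shallower nuclei than the others, with a median of 752.8 UMIs per positive nucleus against 1112 as the median over the 8 libraries. Summed *Ubx*-free UMIs ranged from 246200.0 to 458300.0 in the positive sum of a library and from 533900.0 to 1077000.0 in its negative sum. Of the disc nuclei, 68 (0.811%) carried a barcode that also occurred in another library, 17 of them positive and 51 negative. Without library 1 the pooled comparison below called 88 genes higher and 92 lower, against 98 and 98 with it.

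*Ubx* was found in every disc cluster, most often in cluster 0. In cluster 0, 1323 of 3462 nuclei were positive (38.2%, 95% Wilson interval 36.6 to 39.9%), in cluster 1, 712 of 3120 (22.8%, 21.4 to 24.3%), and in cluster 5, 328 of 1804 (18.2%, 16.5 to 20.03%), where the intervals cover counting error only. Over the 8 libraries the shares were 38.3% ± 2.66, 23.0% ± 3.58 and 18.5% ± 2.72 (SD, n = 8). Cluster 5 had the fewest positive nuclei but the most *Ubx* in each: the median count of a positive nucleus was 7.79 there, 3.85 in cluster 0 and 3.98 in cluster 1, and 62.5% of its positive nuclei held 5 or more counts, against 37.3% and 40.2%. In the positive sums *Ubx* stood at a median of 12520.0 CPM in cluster 5, 5402 in cluster 0 and 4774 in cluster 1. As a measure of free RNA, *Ubx* reached 0.5 counts in 0.221%, 0.462% and 2.52% of nuclei in fat body clusters 4, 13 and 15, at median depths of 594, 1703 and 1058 UMIs, against 1071, 1060.0 and 1016 UMIs in disc clusters 0, 1 and 5. Outside the discs the highest shares were in muscle (29.7%), one neuron cluster (26.2%) and trachea (25.4%).

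**Figure D1:**
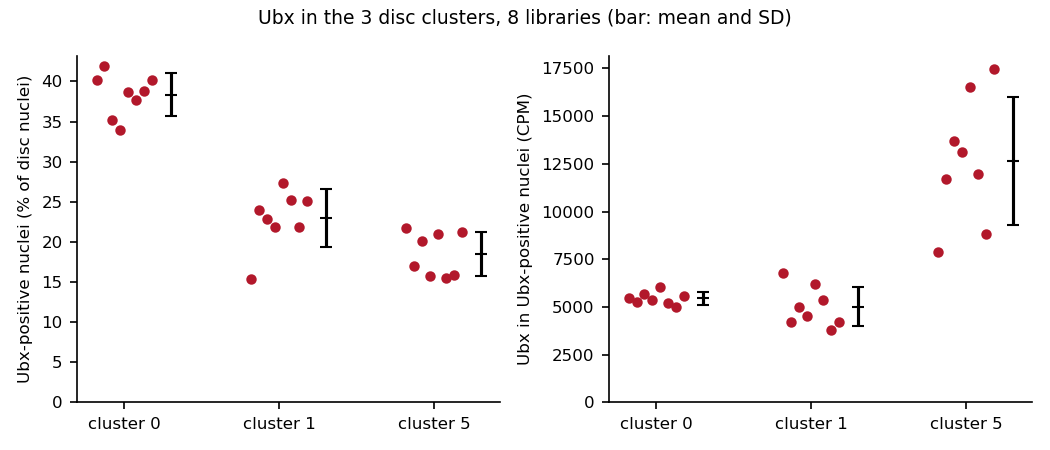
Share of disc nuclei that were Ubx-positive (left, percent) and *Ubx* level in the summed positive nuclei (right, CPM) for clusters 0, 1 and 5, with 1 point per library and the mean with its SD over 8 libraries as the bar. Cluster 0 had the highest share, 38.3% on average, and cluster 5 the highest *Ubx* level per positive sum, with a median of 12520.0 CPM; these values follow from the selection and were not tested.

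The gate left no ambiguous nuclei at its lower edge. All 6023 negative nuclei held exactly 0 corrected counts of *Ubx*. The lowest positive nucleus held 0.68 and the next 0.82, 481 positive nuclei lay from 0.5 to below 1.5, 898 from 1.5 to below 5 and 984 at 5 or more, with a highest count of 107.9. At these depths a count of 0 does not show that the gene was silent in a nucleus. Depth differed between the sides only in part: in cluster 0 positive nuclei had more UMIs, *Ubx* left out, in 8 of 8 libraries (a mean of 97.4 ± 45.5 more, SD, n = 8, two-sided exact paired permutation p = 0.0078, the smallest the design allows). In cluster 1 the mean difference was 0.62 ± 61.5 UMIs (exact permutation p = 0.99, n = 8), and in cluster 5 it was -43.6 ± 55.4 UMIs (exact permutation p = 0.078, n = 8). Each comparison was therefore repeated with 2363 negative nuclei matched to the positive ones in depth within library and cluster, which leaves fewer negative nuclei and gives both sides 1 cluster mix. With them, 26 of the 98 higher and 36 of the 98 lower calls of the pooled comparison below were kept, 22 of 31 and 33 of 37 in cluster 0, 32 of 50 and 33 of 60 in cluster 1, and 13 of 43 and 19 of 43 in cluster 5. The rest lost the call or were too low to be tested, except *disco-r*, which was called in the opposite direction in the pooled sums.

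Over the 3 clusters together, the gene with the largest difference besides *Ubx* was its neighbour *lncRNA:bxd*, a noncoding RNA of the *bithoraxoid* region at 3R:16742125-16773189, 7698 bases from *Ubx* on the same strand. It had 25.4 to 69.6 CPM (median 35.2) in the positive sums and 0 to 3.56 CPM (median 1.95) in the negative sums, so the sides did not overlap. The log2 fold change of positive over negative was 4.33 ± 0.29 (SE, adjusted p = 6.12e-09; edgeR quasi-likelihood test with library as a block, here and below). A count of 0.5 or more was found in 103 of 2363 positive nuclei (4.36%) and 10 of 6023 negative nuclei (0.166%), and in 0 of 1811, 0 of 865 and 0 of 753 nuclei of the fat body clusters. *CG31275* overlaps this RNA on the same strand, so reads of the pair may not be separable. It was too low to be tested within clusters or with depth-matched negatives. Within clusters it was higher in 8 of 8 libraries in cluster 0 (median 50.02 against 4.06 CPM), in 7 of 8 in cluster 1 (13.8 against 0) and in 4 of 8 in cluster 5 (9.48 against 0), where the positive sums of the other 4 libraries held none.

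The pooled test covered 3609 genes and called 98 higher (2.72%) and 98 lower (2.72%) in positive nuclei at an adjusted p under 0.05, with 463 genes at an unadjusted p under 0.05. The sides differed in cluster mix: 56.0% of positive nuclei came from cluster 0, 30.1% from cluster 1 and 13.9% from cluster 5, against 35.5%, 40.0% and 24.5% of negative nuclei. When sums were kept apart by cluster, 66 of the 151 pooled calls that were still tested kept their call and direction. The leg gene *Sp1* was 0.75 higher on the log2 scale in the pooled sums (adjusted p = 6.03e-11) and 0.11 higher within clusters (adjusted p = 0.87). *Dll* changed from 0.58 (adjusted p = 1.51e-06) to 0.02 (adjusted p = 0.999), and *vg* from -0.91 (adjusted p = 6.24e-05) to -0.02 (adjusted p = 0.999). The leg gene *disco-r* turned its sign, from 0.22 (adjusted p = 0.0058) to -0.57 (adjusted p = 0.00073), and was at -0.30 with the matched negatives (adjusted p = 0.00025). The pooled values of genes that mark a cluster therefore moved with the cluster mix, and the comparisons within clusters are given in more detail.

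Among the pooled calls, the 12 genes furthest down in positive nuclei included 4 Hox genes. *pb* fell by 3.52 on the log2 scale (SE 0.21, adjusted p = 1.33e-09), from 52.4 to 296 CPM (median 124.1) in the negative sums to 2.56 to 18.1 CPM (median 13.6) in the positive sums. *Scr* fell by 3.23 (SE 0.20, adjusted p = 1.88e-09), from 353 to 426 CPM (median 402) to 9.24 to 86.8 CPM (median 32.0). The sides did not overlap for either gene. *Dfd* (-2.35), *Abd-B* (-2.25) and *lncRNA:iab8* (-2.46), a noncoding RNA of the Bithorax complex, were also lower in 8 of 8 libraries. So were the eye genes *toy* (-2.29) and *ey* (-1.45), both of the Pax6 type, *retn* (-2.996), an ARID-domain transcription factor, *bnl* (-1.94), an FGF ligand, and the noncoding RNAs *lncRNA:CR45902* (-3.78), which lies inside *Scr* on the same strand and cannot be told apart from it, and *lncRNA:CR33938* (-1.59). The homeobox gene *scro* (-1.60, lower in 7 of 8 libraries, adjusted p = 0.018) lost its call with depth-matched negatives (adjusted p = 0.24), without library 3 (adjusted p = 0.052) and without library 5 (adjusted p = 0.051).

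The genes furthest up in the pooled sums after *lncRNA:bxd* included *Nox*, an NADPH oxidase, with 20.5 to 67.6 CPM (median 40.8) in the positive sums against 5.45 to 22.8 CPM (median 11.9), a log2 fold change of 1.83 ± 0.22 (SE, adjusted p = 1.06e-05). *ana*, which encodes a secreted glycoprotein, was 1.61 higher (adjusted p = 8.07e-05), and *dac*, which makes the intermediate leg, was 1.28 higher (SE 0.06, adjusted p = 6.03e-11), with 1039 to 1278 CPM (median 1179) in the positive sums and 386 to 641 CPM (median 504) in the negative sums. *dac* marks cluster 0, and its value was 0.78 with depth-matched negatives (adjusted p = 1.66e-07) and 0.48 with sums per library and cluster (adjusted p = 0.035). For *dac* the sides did not overlap, while for *Nox* the lowest positive library lay below the highest negative one. *CG5888* (1.07), *so* (0.99), an eye and sensory transcription factor, *Mp* (0.96), a collagen, *CG7991* (0.93), *rho* (0.94), a protease that releases EGF ligands, *CG34347* (0.89), *CG32017* (0.88) and *lncRNA:CR46003* (1.34) completed the 12. Of these, *lncRNA:CR46003* (adjusted p = 0.37), *CG7991* (adjusted p = 0.73), *rho* (adjusted p = 0.057) and *CG32017* (adjusted p = 0.31) were not called with depth-matched negatives, which also have the cluster mix of the positives, and *Nox* and *ana* were too low there to be tested. *CG32017* was also not called without library 4 (adjusted p = 0.059) or without library 6 (adjusted p = 0.11), and *Mp* not without the nuclei that held genes of other segments or the head (adjusted p = 0.051).

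Within clusters, the Hox genes sorted into different patterns. In cluster 0, the leg-gene cluster, *pb* had 148.6 to 733.6 CPM (median 337) in the negative sums and 0 to 35.0 CPM (median 12.4) in the positive sums, a log2 fold change of -4.77 ± 0.27 (SE, adjusted p = 1.20e-09). *Scr* had 700.3 to 901.3 CPM (median 852) against 5.68 to 145.0 CPM (median 49.2), a change of -3.87 ± 0.21 (adjusted p = 1.04e-09). Both were separate on the 2 sides in all libraries, and *Scr* reached 0.5 counts in 665 of 2139 negative nuclei (31.1%) and 33 of 1323 positive nuclei (2.49%), against 0.398% or less in the fat body clusters. *Abd-B* was also lower (-2.20, adjusted p = 0.0033). *Antp* was not called in this cluster: it had 1108 to 1460.4 CPM (median 1349.5) in the positive sums and 1167 to 1862 CPM (median 1505) in the negative sums (-0.17 ± 0.07, adjusted p = 0.31).

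In cluster 1 *Antp* fell by 1.76 on the log2 scale (SE 0.24, adjusted p = 0.00016), with 361 to 1711 CPM (median 941.8) in the positive sums and 1793 to 4089.9 CPM (median 3601) in the negative sums, which did not overlap. In cluster 5 it fell by 1.54 (SE 0.21, adjusted p = 2.94e-05), with 74.9 to 347 CPM (median 234.9) against 468.6 to 957.9 CPM (median 569.5), again without overlap. The difference in the *Antp* contrast between the 3 clusters passed its own test (adjusted p = 9.60e-05). *Scr* (-3.15), *Dfd* (-2.76) and *Abd-B* (-2.71) were lower in cluster 1 as well, with adjusted p values of 0.00012, 0.00012 and 0.00025. In cluster 5 *pb*, *Dfd*, *Scr* and *Abd-B* were at medians of 0 to 21.6 CPM on either side and were too low to be tested. *abd-A* was tested in the pooled sums only (-0.20, adjusted p = 0.82).

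**Figure D2:**
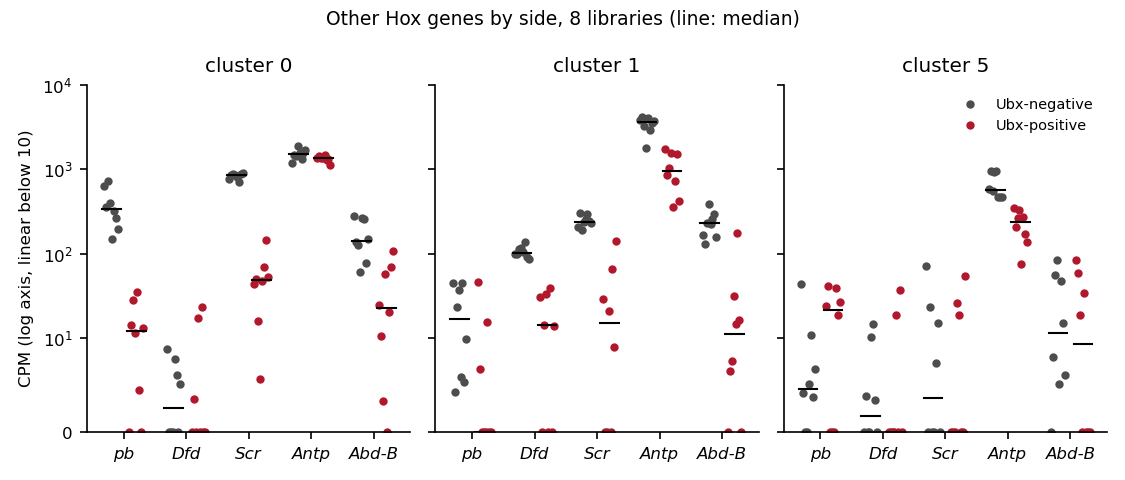
Levels of 5 other Hox genes in the negative (grey) and positive (red) sums of clusters 0, 1 and 5, in CPM on a log axis that is linear below 10, with 1 point per library and the median as a line. *pb* and *Scr* separate the sides in cluster 0, *Antp* separates them in clusters 1 and 5, and in cluster 0 *Antp* has medians of 1349.5 CPM (positive) and 1505 CPM (negative).

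Nuclei with transcripts of other segments or of the head were unevenly spread. At least 1 of *lab*, *pb*, *Dfd*, *Scr*, *abd-A*, *Abd-B*, *ey*, *toy*, *Optix* and *oc* reached 0.5 counts in 40.8% of negative and 9.52% of positive nuclei of cluster 0, in 41.2% and 16.7% in cluster 1, and in 13.4% and 16.5% in cluster 5. Leaving these nuclei out, an alternative chosen after the data were seen, kept 3962 negative and 2064 positive nuclei. The *Antp* change was then -2.27 in cluster 1 (adjusted p = 2.87e-06) and -1.75 in cluster 5 (adjusted p = 2.48e-05), and in cluster 0 it became -0.46 (adjusted p = 2.70e-05), a call that the comparison of all nuclei did not make. Of the pooled calls, 71 of 98 higher and 66 of 98 lower genes remained.

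In cluster 0 the test covered 2340 genes and called 31 higher (1.32%) and 37 lower (1.58%). *defective proventriculus* (*dve*), a homeobox gene, was highest by fold: 944.3 to 1747 CPM (median 1494.5) in the positive sums against 365.7 to 696.3 CPM (median 629), a log2 fold change of 1.29 ± 0.10 (SE, adjusted p = 7.62e-08) without overlap. *dac* was 0.77 ± 0.06 higher (adjusted p = 1.34e-07), with 1647 to 2153 CPM (median 2008) against 890.3 to 1505 CPM (median 1163), and it reached 0.5 counts in 59.2% of positive and 36.0% of negative nuclei, against 0.93% or less in the fat body clusters. Neither gene had a positive library within the negative range. *wb*, a laminin subunit, was 0.75 higher (adjusted p = 4.92e-05), and the uncharacterised genes *CG5888* (0.89), *CG43394* (0.78) and *CG32365* (0.77) completed the 6 highest, of which *CG43394* (adjusted p = 0.052) and *CG32365* (adjusted p = 0.13) were not called by DESeq2. The 6 lowest were *pb*, *lncRNA:CR45902* (-4.17), *Scr*, *retn* (-3.70), *lncRNA:iab8* (-3.33) and *cut* (*ct*), a homeobox gene of sensory organs and the antenna, which had 95.6 to 538.8 CPM (median 204) against 630.0 to 1433 CPM (median 1076) and a log2 fold change of -2.31 ± 0.19 (adjusted p = 1.74e-07).

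Genes that pattern the leg along its length moved in both directions in cluster 0. Of 18 tested leg proximodistal genes, 1 was higher (*dac*) and 4 were lower: *hth* (-0.60, adjusted p = 1.74e-07) and *tsh* (-0.50, adjusted p = 0.011), which mark the proximal leg, *ss* (-1.85, adjusted p = 2.99e-05), which acts in the tarsus and antenna, and *disco-r* (-0.29, adjusted p = 0.0016). The median log2 fold change of the 18 was 0.09, beside 0.00 over all genes tested, of which 1.32% were called higher and 1.58% lower. *hh*, the ligand made in posterior compartments, was higher (0.35, adjusted p = 0.0074) and *ci*, the transcription factor of anterior compartments, was lower (-0.46, adjusted p = 0.00078), each in 8 of 8 libraries. Of the 5 compartment genes tested, 1 was thus higher, 1 was lower and 3 were not called, with a list median of -0.10. The sex-determination gene *dsx* was lower (-0.77, adjusted p = 5.03e-07, 8 of 8 libraries). *ex* and *sty*, which act in the Hippo and EGF receptor pathways, were higher (0.32 and 0.48, adjusted p = 0.017 and 0.0011).

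In cluster 1 the test covered 1994 genes and called 50 higher (2.51%) and 60 lower (3.01%). *CG42342*, which has no assigned name, had 1274 to 3445 CPM (median 2258) in the positive sums and 816.6 to 1059 CPM (median 892) in the negative sums, a log2 fold change of 1.30 ± 0.12 (SE, adjusted p = 4.64e-06). *Mp* was higher by more (1.72 ± 0.16, adjusted p = 6.15e-06), with 210.3 to 728 CPM (median 499) against 103.9 to 235.5 CPM (median 149.9). *dar1*, a Kruppel-like factor, was 1.51 higher (adjusted p = 4.38e-05), at 491.6 to 1884 CPM (median 773.5) against 159.4 to 470.2 CPM (median 316). The sides were separate for *CG42342* and *dar1* and overlapped for *Mp*. *CG13024* (1.501), *eya* (1.24), a cofactor of *so*, and *salr* (1.11) were the others of the 6 highest, and *salm*, the zinc finger partner of *salr* in the wing, was 0.99 higher (adjusted p = 0.00011). *toy* fell by 2.39 (SE 0.22, adjusted p = 5.83e-06), from 172.7 to 334.0 CPM (median 269) to 7.53 to 98.7 CPM (median 41.5), and *H15*, a T-box gene, had a log2 fold change of -2.45 (adjusted p = 0.0035). *lncRNA:iab8* (-2.41, adjusted p = 0.015) was not called without library 3 (adjusted p = 0.053) or without library 7 (adjusted p = 0.052).

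The proximal genes went the other way in cluster 1 than in cluster 0: *hth* was 0.26 higher (adjusted p = 0.00029), with 16928 to 20865 CPM (median 18348) in the positive sums against 14456 to 16581 CPM (median 15643), and *tsh* was 0.29 higher (adjusted p = 0.030), a call lost with depth-matched negatives (adjusted p = 0.46). The sides did not overlap for *hth*. Of 11 tested genes of the notum and body wall, 2 were lower, the Pax genes *eyg* (-1.07, adjusted p = 0.0089) and *toe* (-1.17, adjusted p = 0.00090), and 0 higher. The list median was -0.28 beside 0.01 over all genes, of which 3.01% were called lower and 2.51% higher. The Notch ligands *Dl* (-0.53, adjusted p = 0.0015) and *Ser* (-0.75, adjusted p = 4.38e-05) were both lower. Of 18 tested axon guidance and adhesion genes, 7 were lower, among them *trn* (-1.18) and *caps* (-0.86), paired leucine-rich repeat proteins of the cell surface, and 1, *Ten-m* (0.55), was higher, beside 3.01% and 2.51% of all genes. With depth-matched negatives *NetB* (adjusted p = 0.20), *Fas2* (adjusted p = 0.21), *kirre* (adjusted p = 0.086) and *CadN* (adjusted p = 0.12) of the 7 were not called. *disco-r* was 1.22 lower (adjusted p = 1.01e-05).

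In cluster 5, the cluster highest in *nub* and *vg*, the test covered 1316 genes and called 43 higher (3.27%) and 43 lower (3.27%). *wg*, the Wnt ligand of the wing margin, had 158.0 to 356.6 CPM (median 204) in the positive sums and 49.1 to 151.2 CPM (median 84.7) in the negative sums, a log2 fold change of 1.34 ± 0.21 (SE, adjusted p = 0.00017). *pdm3*, a POU-domain gene, was 1.56 ± 0.13 higher (adjusted p = 7.15e-08), at 892 to 2007 CPM (median 1351) against 381 to 670.5 CPM (median 442.5). Both were separate on the 2 sides, and *wg* was too low to be tested with depth-matched negatives or without nuclei of other segments. *bab2*, a BTB-domain factor of distal leg segments, was 1.71 higher (adjusted p = 4.74e-05), with 150.8 to 806 CPM (median 518.6) against 99.7 to 233 CPM (median 144.6), and 1 library went the other way. *Glut4EF* (1.89), *CG42741* (1.28) and *CG32447* (1.17) were the others of the 6 highest. With depth-matched negatives *CG32447* was not called (adjusted p = 0.095) and *Glut4EF* and *CG42741* were too low to be tested.

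In cluster 5 the pouch gene *nub* was lower, as were *hh* and *fj*, which are not among the listed pouch selectors. *nub*, which marks the pouch and hinge, had 764.6 to 1366 CPM (median 1093) in the positive sums and 1558 to 2369.6 CPM (median 2022) in the negative sums, a log2 fold change of -0.83 ± 0.10 (adjusted p = 8.13e-06) without overlap. *hh* fell by 0.95 (SE 0.15, adjusted p = 0.00017), from 483 to 749 CPM (median 606) to 163.9 to 492 CPM (median 302). *fj*, a kinase of the Fat pathway, fell by 1.63 (SE 0.22, adjusted p = 2.94e-05), from 247 to 445 CPM (median 313) to 38.1 to 247.7 CPM (median 80.1). For *hh* and *fj* the ranges touched at their edges, while each gene was lower in 8 of 8 libraries. Of 14 tested pouch selectors, *nub*, *rn* (-0.41, adjusted p = 0.014) and *Dll* (-0.78, adjusted p = 0.028) were lower and *bi* (0.31, adjusted p = 0.0010) and *zfh2* (0.50, adjusted p = 0.00017) higher. The other 9 were not called. The summed level of the list was higher in the positive sums in 5 of 8 libraries (median 29550 against 27150 CPM). Over all genes 3.27% were called in each direction. *vg* had a log2 fold change of -0.47 (adjusted p = 0.14). *Dll* was not called without nuclei of other segments (adjusted p = 0.26). The others of the 6 lowest besides *fj* and *Antp* were *CG42268* (-1.81), *Trim9* (-1.55), a ubiquitin ligase, *betaTub60D* (-1.14) and *Pdp1* (-1.07), which lost its call without library 2 (adjusted p = 0.061), without library 5 (adjusted p = 0.12), and without library 6 (adjusted p = 0.052).

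**Figure D3:**
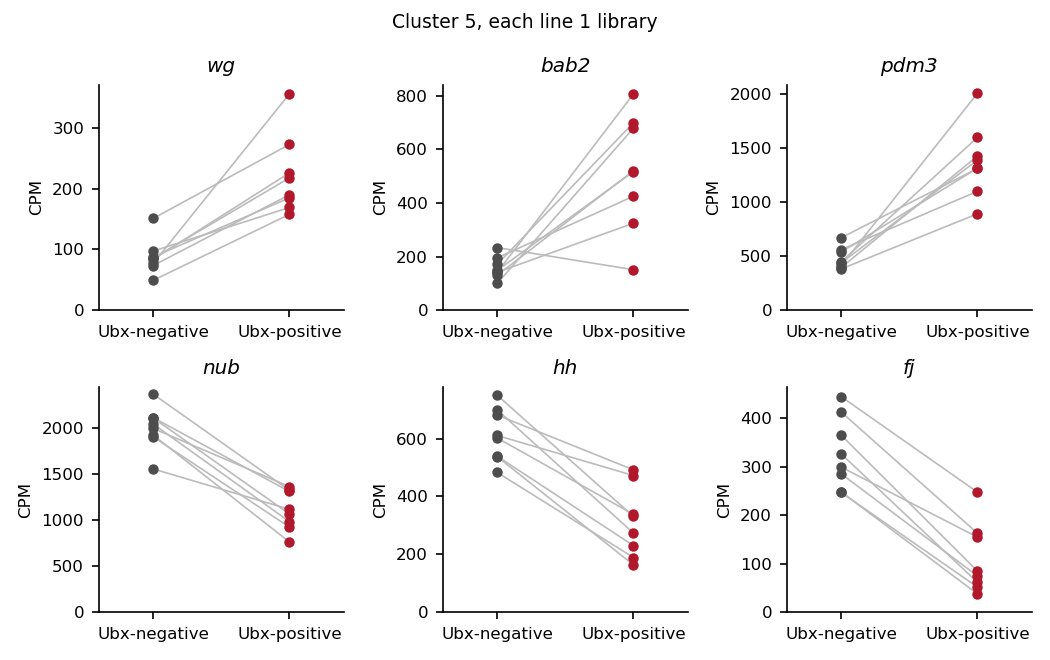
Levels of 6 genes in cluster 5, in CPM, with 1 line per library joining its Ubx-negative and Ubx-positive sums. *wg* and *pdm3* rose in 8 of 8 libraries and *bab2* in 7, and *nub*, *hh* and *fj* fell in 8 of 8.

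Genes known from other work as targets of Ubx in the haltere were given as a list. In cluster 5, 15 of them were tested, 1 was higher (*wg*) and 3 were lower: *kn* (-1.01, adjusted p = 0.031), a transcription factor of the wing's central region, *dally* (-0.32, adjusted p = 0.0098), a glypican that binds Dpp, and *vn* (-0.72, adjusted p = 0.0052), an EGF receptor ligand. The list's median was -0.23 beside 0.02 over all 1316 genes, of which 3.27% were called in each direction. *kn* lost its call with depth-matched negatives (adjusted p = 0.11) and so did *vn* (adjusted p = 0.29). In cluster 0, 1 of 13 was higher and 2 lower, beside 1.32% and 1.58% of all genes. In cluster 1, 2 of 15 were higher and 3 lower, beside 2.51% and 3.01%, where *ct* (-0.73), *dlp* (-0.57) and *Ser* were the lower ones and *ct* was not called with depth-matched negatives (adjusted p = 0.18). The Wnt list in cluster 5 had 4 of 10 higher, beside 3.27% of all genes: *wg*, its receptor *fz* (0.39, adjusted p = 0.00014), the feedback inhibitors *nkd* (0.22, adjusted p = 0.035) and *Notum* (0.97, adjusted p = 0.0020), and 1 lower, the co-receptor *arr* (-0.57, adjusted p = 0.0063). *Notum*, *nkd* and *arr* were not called with depth-matched negatives (adjusted p = 0.33, 0.26 and 0.26). *Myc*, the growth regulator, was lower in clusters 1 (-0.51, adjusted p = 0.011) and 5 (-0.92, adjusted p = 0.00047), and in cluster 1 it was not called with depth-matched negatives (adjusted p = 0.052).

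*modSP*, a serine protease gene at 3R:16652446-16655662, was looked up for its position after its values were seen: it starts 960 bases beyond the 3′ end of *Ubx* on the same strand. In cluster 5 it had 193.4 to 432 CPM (median 267.5) in the positive sums and 113.1 to 193.6 CPM (median 153.2) in the negative sums, a log2 fold change of 0.88 ± 0.17 (SE, adjusted p = 0.0015) that was positive in 8 of 8 libraries. The call was lost with depth-matched negatives (adjusted p = 0.12) and without nuclei of other segments (adjusted p = 0.099). In clusters 0 and 1 its log2 fold changes were 0.13 (adjusted p = 0.77) and -0.12 (adjusted p = 0.78). Whether reads of *Ubx* contributed to *modSP* was not tested.

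The change that came with *Ubx* differed between clusters. A test of the difference over the 3 clusters covered 2680 genes and called 138 (5.15%). *Lsd-2*, a lipid droplet perilipin, had log2 fold changes of 0.58 in cluster 0, -0.47 in cluster 1 and -1.07 in cluster 5 (adjusted p of the difference = 2.98e-08). For *hth* the values were -0.60, 0.27 and 0.04 (adjusted p = 4.63e-08), and for *klu*, a zinc finger factor, 0.38, -1.06 and -0.14 (adjusted p = 2.41e-07). *salr* was at -2.40, 1.11 and -0.48 (adjusted p = 2.41e-07), though in cluster 0 it reached at most 34.1 CPM in a positive sum, and *CG5151* at 0.13, -0.73 and -0.24 (adjusted p = 2.41e-07). Between clusters 0 and 1, 8 genes were called in opposite directions and 19 in the same one; between clusters 0 and 5 the counts were 9 and 9, and between clusters 1 and 5 they were 2 and 17. All 19 opposite pairs passed the test of the difference, which used the same sums that chose them and so is no separate support. With depth-matched negatives 7 of the 19 were still called in both clusters. The genes *hh* (0.35 in cluster 0, -0.96 in cluster 5, adjusted p = 4.21e-06), *vvl* (0.72 and -1.07, adjusted p = 3.19e-06), a POU-domain gene, and *wb* (0.75 and -0.74, adjusted p = 5.14e-06) were among the 19, and of these 3 *wb* was not called in cluster 5 with depth-matched negatives (adjusted p = 0.073).

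**Figure D4:**
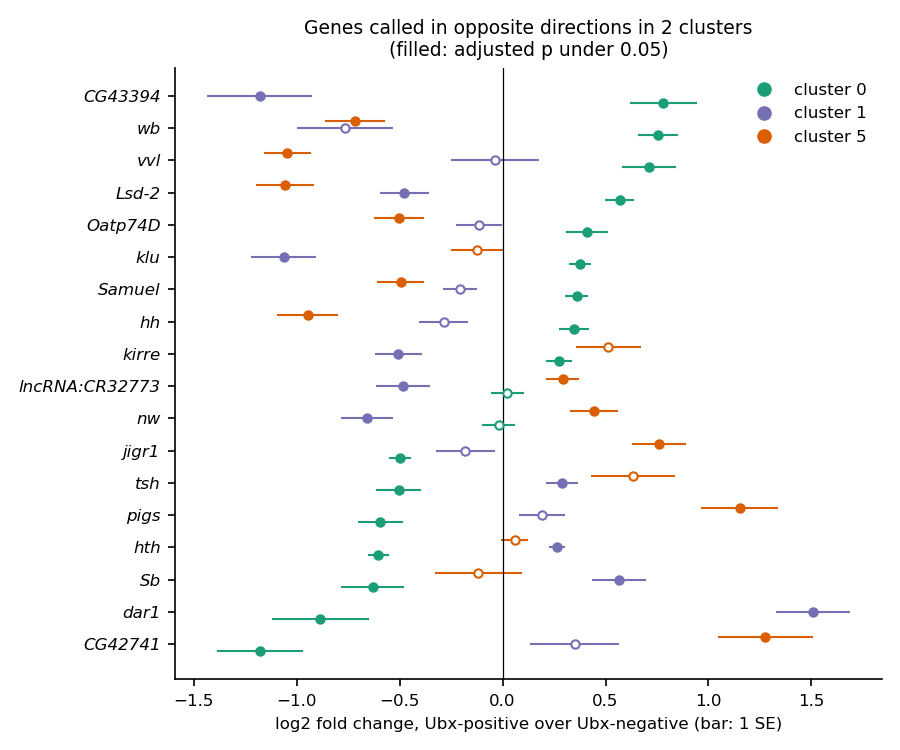
Log2 fold change of Ubx-positive over Ubx-negative sums, with 1 SE, for the genes called in opposite directions in 2 disc clusters; filled points have an adjusted p under 0.05. Each gene has filled points on both sides of 0, such as *Lsd-2* at 0.57 in cluster 0 and -1.06 in cluster 5 in the fits of each cluster.

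Of the 1296 genes tested in all 3 clusters, 4 were called in 1 direction in each: *CG42342* (0.46, 1.30 and 0.89 in clusters 0, 1 and 5) and *osp* (0.38, 0.41 and 0.69) were higher, and *CG4374* (-1.46, -0.86 and -0.84) and *bbg* (-0.32, -1.08 and -0.78) were lower. *osp* encodes outspread, known for a wing posture mutant, and *bbg* a PDZ-domain protein. With depth-matched negatives *bbg* alone of the 4 was still called in each cluster. *CG42342* was not called in clusters 0 (adjusted p = 0.090) and 5 (adjusted p = 0.10), nor *osp* (adjusted p = 0.12) and *CG4374* (adjusted p = 0.061) in cluster 5.

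Other gene lists differed in how many of their genes were called in the pooled sums. Of 22 tested Polycomb and trithorax group genes, which maintain Hox states, 0 were called in the pooled sums by edgeR or by DESeq2, 0 had an unadjusted p under 0.05, and the list median was 0.01. In those sums neither tool called any of 14 ecdysone response genes (4 at an unadjusted p under 0.05 in edgeR), 13 heat shock genes (2) or 5 JAK/STAT genes (0). The Dpp list had 2 of 11 lower (*dpp*, *dlp*), the Notch list 2 of 11 lower, the EGF receptor list 3 of 12 higher (*rho*, *pnt*, *sty*), the Hippo and Fat list 2 of 12 higher (*ex*, *kibra*) and *Myc* lower, the cell cycle list 1 of 13 higher (*E2f1*, 0.13) and the sensory organ list 1 of 6 higher (*pros*). Of 8 peripodial genes, *bnb* and *grn* were higher and *Antp* lower. These counts lie beside 2.72% of all genes in each direction, and many depended on the negatives. With depth-matched negatives none of the 3 EGF receptor genes (*rho* 0.057, *pnt* 0.36 and *sty* 0.057 as adjusted p), neither of the 2 higher peripodial genes (*bnb* 0.62, *grn* 0.24) and not *dpp* (0.099), *ex* (0.097), *E2f1* (0.30) or *E(spl)mbeta-HLH* (0.37) was called. With sums per library and cluster *bnb* (adjusted p = 0.71), *grn* (adjusted p = 0.71), *pnt* (adjusted p = 0.17) and *sty* (adjusted p = 0.54) were not called either. Within cluster 5, edgeR called the heat shock gene *Hsc70-3* lower (-0.49, adjusted p = 0.017), but not with depth-matched negatives (adjusted p = 0.12). There 3 of 3 tested JAK/STAT genes had an unadjusted p under 0.05 in edgeR, with a list median of 0.40, and 0 were called.

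The *Ubx* count of a nucleus was followed by several genes over its range, given as descriptions. In cluster 0, *lncRNA:bxd* stood at 4.49 CPM in negative nuclei and at 22.8, 41.2 and 86.4 CPM in nuclei with 0.5 to 1.5, 1.5 to 5 and 5 or more *Ubx* counts, and *dve* at 578, 1087, 1393 and 1677 CPM. *Scr* went from 832 to 233 and then to 9.21 and 8.55 CPM. In cluster 1, *Antp* went from 3381 to 2379, 928 and 515 CPM, and in cluster 5 from 669.5 to 373, 229.7 and 180.6 CPM. The *Antp* level in cluster 0 was 1502, 1642, 1424 and 1099 CPM. Median depth moved with these classes, at 1036, 1042, 1115 and 1182 UMIs in cluster 0 and 1056, 919, 1040.0 and 1203 in cluster 1, and the lowest positive class of cluster 5 held 45 nuclei.

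**Figure D5:**
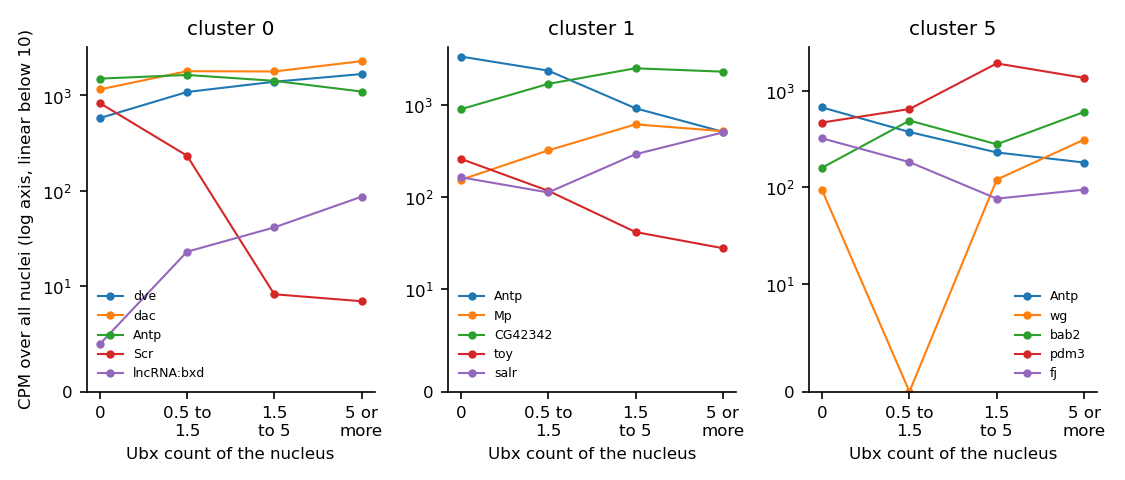
Levels of selected genes, in CPM summed over all nuclei of a class on a log axis that is linear below 10, against the *Ubx* count of the nucleus in clusters 0, 1 and 5. *Scr* in cluster 0 and *Antp* in clusters 1 and 5 go down with *Ubx*, and *dve* and *lncRNA:bxd* in cluster 0 go up.

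*Ubx* and *Antp* were also found in the same nuclei. In cluster 0, *Antp* reached 0.5 counts in 668 of 1323 positive nuclei (50.5%) and 906 of 2139 negative nuclei (42.4%), and in 42.2% of depth-matched negatives. In cluster 1 it was 21.9% of positive and 35.6% of negative nuclei, and in cluster 5, 12.5% and 25.7%. Fat body clusters 4, 13 and 15 had *Antp* in 0.166%, 0.578% and 3.45% of nuclei. The share of nuclei thus went up with *Ubx* in cluster 0 while the summed *Antp* level had a log2 fold change of -0.17.

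By likeness, the genes whose CPM followed *Ubx* most over the 24 library-by-cluster sums of all disc nuclei were *rdo* (Pearson r = 0.81), *caps* (0.79), *nkd* (0.79), *RhoU* (0.75), *dve* (0.75), *Ide* (0.73), *N* (0.72), *E2f1* (0.71), *Cad86C* (0.71) and *for* (0.71), among 3633 genes compared. The sums share libraries and fall into 3 clusters, so the values describe these sums only. Within clusters, *dve* was called higher in positive nuclei in cluster 0, *E2f1* in cluster 1 and *nkd* in cluster 5, the last pair not with depth-matched negatives (adjusted p = 0.17 and 0.26). *rdo* (-1.30, adjusted p = 0.0012) and *caps* (-0.86, adjusted p = 0.00023) were called lower in cluster 1.

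For summed markers of other cell types, the ranges over libraries overlapped between the sides. Summed over its markers, the neuron list stood at 114.4 to 234 CPM in the positive sums and 124.0 to 243 CPM in the negative sums, glia at 73.0 to 170.4 and 96.2 to 200.6 CPM, myoblasts at 283.9 to 436.8 and 352 to 385 CPM, hemocytes at 6.65 to 59.1 and 10.7 to 46.4 CPM, and fat body at 689 to 2363 and 621 to 2166 CPM. Muscle, trachea, gut, salivary gland and larval epidermis overlapped likewise, and gonad markers stayed at or below 3.23 CPM. Called genes appeared in the eye disc list, with 100.9 to 223 CPM against 171.5 to 250.3 CPM, where *eya* and *so* were higher and *ey* and *toy* lower. Paired by library, the pooled eye disc sum was higher in positive nuclei in 1 of 8 libraries. Within clusters it was higher in 6 of 8 libraries in cluster 0, 0 of 8 in cluster 1 (median 285.8 against 442.2 CPM) and 3 of 8 in cluster 5. For the other cell types the pooled count ran from 2 (trachea) to 6 (neurons) of 8. *Sgs7*, a salivary gland gene named after its values were seen, was called higher in cluster 5 (0.67, adjusted p = 0.042, higher in 5 of 8 libraries), and not with depth-matched negatives (adjusted p = 0.19). The dosage compensation RNA *lncRNA:roX1*, known from male cells, reached 0.5 counts in 67.6% of positive and 65.2% of negative nuclei. *lncRNA:roX2* reached it in 54.3% and 50.9%. Each library pooled 8 male and 8 female larvae. Both *lncRNA:roX1* shares lay above that of an equal mix of male and female nuclei, so they cannot be read as shares of male nuclei. Whether free RNA contributed was not tested.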

How the data were processed

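The authors aligned reads of 8 droplet libraries (10x 3′ chemistry, nuclear RNA) with Cell Ranger 7.1.0 to build BDGP6, per the labels, and then corrected for ambient RNA with DecontX, removed doublets and low-quality nuclei, integrated the libraries and annotated clusters. They deposited 1 matrix of estimated counts, corrected and so not whole, for 30819 nuclei and 12610 genes, and 1 table of clusters. Ambient correction can set low counts to 0, which moves nuclei to the negative side.

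The members, gene lists and tests were chosen with earlier results of these data known. Counts were summed over nuclei of each side, library and cluster without *Ubx*, rounded, filtered with filterByExpr and tested with edgeR 4.0.16 (TMM, quasi-likelihood F test, Benjamini-Hochberg over all genes tested) with library as a block. The same library's deviations correlated between sides (0.32 to 0.53 pooled), and the 2 sums of a library come from the same larvae. CPM of the sides use totals without *Ubx*, and CPM of *Ubx* and of whole clusters use totals with it. Alternatives changed the block, normalization, filter, gate, depth matching and libraries; leaving out nuclei with genes of other segments was added after the data were seen. The text names the 12 (pooled) or 6 (cluster) largest changes each way with an adjusted p under 0.05, 20 CPM or more on the higher side and the direction in 7 of 8 libraries, the 5 smallest p values of the difference between clusters, and genes of 21 lists by the same limits. The paper calls the libraries replicates but does not state that each came from its own larvae. If libraries share larvae or a suspension of nuclei, the SDs and p values over libraries cover technical spread only. Positions are from BDGP6.54. Scripts used R 4.3.3, Python 3.11.15 and DESeq2 1.42.0 (alternative), and fits were tested on simulated data. No sequences were used.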

Additional observations from a re-analysis of the deposited data

Results flagged for a closer look

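Chance flags about 1 in 20 groups, and 76 groups of 8 values were examined for a library that stands apart. Library 1 stood apart in depth. Its median UMIs per nucleus were 739.0 (cluster 0, positive), 731.8 (cluster 1, negative), 696.0 (cluster 5, positive), 739.1 (cluster 5, negative), 752.8 (pooled, positive) and 733.9 (pooled, negative). In cluster 1 it also had the lowest share of positive nuclei, 15.4%, against a median of 23.4% over the 8 libraries.

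For single genes, the log2 ratio of CPM plus 10 between the sides stood apart in 4 cases. *ana* had 2.17 in library 3 against a median of 0.88 (pooled), *lncRNA:CR46003* 3.48 in library 2 against 1.36 (pooled), *Abd-B* -0.51 in library 6 against -3.40 (cluster 1), and *CG42268* -5.13 in library 1 against -1.59 (cluster 5).

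The 5 genes with the smallest p for a difference of the *Ubx* contrast between clusters had adjusted p values of 2.98e-08 (*Lsd-2*), 4.63e-08 (*hth*), 2.41e-07 (*salr*), 2.41e-07 (*klu*) and 2.41e-07 (*CG5151*), each from edgeR's quasi-likelihood test.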

How the results depend on the processing

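For the 12 or 6 genes named each way per comparison, 971 values under other settings, where the gene could be tested, kept their call and direction and 29 lost the call. Many of these settings change few nuclei, so the total says little about the others. Of the named pooled genes, 13 kept and 5 lost the call with depth-matched negatives. With sums per library and cluster 8 kept and 2 lost it, and in both settings the rest were too low to be tested. Among other called genes *disco-r* reversed in the pooled sums. In the pooled sums the counts higher and lower were 41 and 52 without the replicate block, 54 and 63 with DESeq2, 32 and 38 with depth-matched negatives, and 40 and 41 with sums per library and cluster. They were 8 and 12 without nuclei holding 2 or more markers of other cell types. That setting left 342 positive and 987 negative nuclei and 889 genes tested, against 3609, so many genes could not be called there. Without a filter on low counts 199 of 12130 genes tested were lower. Cluster 0 had 17 and 23 without the block, 18 and 24 with DESeq2, and 74 and 98 without the filter. Without nuclei holding other markers it had 2 and 1 of 443 genes tested. Cluster 1 had 31 higher without the block, 214 lower without the filter, and 36 lower with depth-matched negatives. Without nuclei holding other markers edgeR called 0 and 0 of 307 genes tested (13 and 15 at an unadjusted p under 0.05). Cluster 5 had 24 higher with DESeq2, 279 lower without the filter, and 13 and 20 with depth-matched negatives. Without nuclei holding other markers it had 2 and 2 of 288 genes tested. The difference between clusters had 89 calls with depth-matched negatives. With positives from 1.5 counts the shares were 29.7% in cluster 0 and 18.5% in cluster 1.

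Leaving out 1 library in turn gave 70 to 89 higher and 81 to 95 lower genes in the pooled sums, 22 to 36 and 30 to 40 in cluster 0, 35 to 54 and 51 to 70 in cluster 1, 32 to 40 and 34 to 45 in cluster 5, and 108 to 134 for the difference. In cluster 5 the depth difference of the sides ranged from -57.7 to -33.1 UMIs and from -16.5 to -9.43 genes. Low depth limits the gate: a nucleus with *Ubx* transcripts can be on the negative side.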
